A study of Homo sapiens with 19 samples.

Results

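SR proteins and hnRNPs are the best known families of proteins that decide which exons of a pre-mRNA are kept. The 35 genes here are 10 SR protein genes, both TRA2 genes, 21 hnRNP and PTB genes and the RNA-binding protein genes RBM5 and RBM10. They were chosen by name, with earlier results of these data known, so shares beside all genes are descriptions. A gene could be measured where an array probe set names it and no other gene, and 32 of the 35 have at least 1 such probe set, out of 19775 genes in all. SRSF2, SRSF9 and HNRNPH2 lie on probe sets that name several genes and are not analysed here. The 32 measured members have 132 probe sets, and 30 of them have 2 or more. The study measured RNA on 19 Affymetrix expression arrays from 10 human colon cancer cell lines grown untreated in DMEM with fetal bovine serum and harvested while growing exponentially. The labels call 5 lines MSI, for microsatellite instability, which are HCT116, LIM2405, LS174T, RKO and SW48, and 5 lines MSS, for microsatellite stable, which are CACO2, HCC2998, HT29, SKCO1 and T84. MSI tumours have lost DNA mismatch repair and gather length errors in short repeats, and MSS tumours have kept it. Each line is 1 established culture standing for 1 tumour, 9 lines have duplicate cultures labelled E1 and E2, and T84 has 1 array.

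SR proteins bind short enhancer sequences in exons through RNA recognition motifs and recruit the spliceosome through a domain rich in arginine and serine, which SRPK and CLK kinases phosphorylate. The hnRNPs coat nascent RNA and often silence exons or enhance them depending on where they bind. Many genes of both families control their own level by splicing in an exon with an early stop codon or by keeping an intron, so that 1 gene yields coding and non-coding transcripts side by side. A probe set reads only the stretch of the transcript its probes match, and probe sets of 1 gene can therefore report different transcripts. Positions of the probes were not at hand, so which transcript each probe set reads was not looked up. The cause of differences between probe sets of 1 gene was not tested. All values below are log2 levels, averaged over the arrays of a line, and the error of a status mean is the SD over its 5 lines. A gene is represented by its brightest probe set unless another is named, and signals of different probe sets or genes are not compared as amounts of RNA. Where 5 values stand in a row, the MSI lines are in the order HCT116, LIM2405, LS174T, RKO and SW48, and the MSS lines in the order CACO2, HCC2998, HT29, SKCO1 and T84.

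Markers of colorectal epithelium were present but uneven. Their mean over 8 genes lay between 11.34 and 12.19 in the MSS lines and between 7.16, in RKO, and 11.86 in the MSI lines. None of the 8 passed limma's test between MSI and MSS. At an unadjusted p under 0.05 there was 1, VIL1, beside 9.77% of all genes. The means of 4 leukocyte, 5 fibroblast and 3 endothelial markers lay between 5.21 and 6.26 in every line. Single markers reached higher values, up to 8.35 for leukocyte, 8.09 for fibroblast and 6.64 for endothelial ones. None of these passed limma's test between MSI and MSS. At an unadjusted p under 0.05 there was 1 leukocyte marker, higher in MSI lines, and no fibroblast or endothelial one. In bulk RNA, fewer cells of a type and less RNA per cell cannot be told apart. The 3′ minus 5′ control signal of ACTB, a sign of RNA length, was 1.24 on average in MSI lines (0.53 to 2.31) and 1.09 in MSS lines (0.45 to 1.90), with an exact two-sided permutation p = 0.698 over 5 against 5 lines. The part of either in the results below was not tested.

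By gene, most members differed little between MSI and MSS lines, as most genes on the array did. Of 32 members, 14 lay higher and 18 lower in MSI lines, 29 (90.6%) by less than 0.5 on the log2 scale, beside 78% of all genes. The median absolute difference was 0.198 over members and 0.181 over all genes, and the median difference was -0.05 against 0.07 over all genes. Over the 3715 genes with a mean level at or above that of the dimmest member, 74.7% differed by less than 0.5. Their median absolute difference was 0.276. No member passed limma's moderated test at an adjusted p of 0.05 over all genes, where 9 of 19775 genes (0.0455%) did. At an unadjusted p under 0.05 there were 3 of 32 (9.38%), HNRNPL and HNRNPH1 higher and HNRNPH3 lower in MSI lines, beside 9.77% of all genes. MSI and MSS lines did not overlap in 1 member, HNRNPL, beside 2.59% of all genes.

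Taken probe set by probe set, the picture was more mixed. 2 of the 132 member probe sets passed limma's test over all probe sets, 1 of SRSF6 and 1 of HNRNPL, both higher in MSI lines, where 0.189% of all 54613 probe sets passed. At an unadjusted p under 0.05 there were 19 of 132 (14.4%), 6 higher (4.55%) and 13 lower (9.85%) in MSI lines, beside 10.4% of all probe sets, 5.58% higher and 4.79% lower. Lines of MSI and MSS status did not overlap in 6 member probe sets, 3 higher (both of HNRNPL and 1 of SRSF6) and 3 lower (1 each of HNRNPH1, HNRNPM and SRSF3), beside 2.7% of all probe sets. In 12 of the 30 members with several probe sets, the MSI minus MSS differences of those probe sets spanned more than 1 on the log2 scale, and the median span was 0.59. Over all 10523 genes with several probe sets, 13.2% spanned more than 1 and the median was 0.29, and over the 2629 of these with a mean level at or above that of the dimmest member, 16.2% and 0.38. The members had a median of 4 probe sets and both of those sets of genes a median of 3, and the part of that number in the spans was not tested. limma's diffSplice, which tests whether the probe sets of a gene differ from each other in their MSI minus MSS difference, called 4 of 30 members, SRSF6, HNRNPH1, HNRNPM and HNRNPC, beside 1.32% of the 10523 genes tested. At the level of single probe sets it called 6 of 130, beside 0.675% of 31839. That test pools the spread over all probe sets of a gene. Another fit, added after the data were seen, took each probe set minus the mean of the others of its gene line by line, and it called 4 of the 130, those of SRSF6 (2), SRSF4 and HNRNPH1, beside 0.546%. In that measure 8 of the 130 did not overlap between MSI and MSS lines, 2 each of SRSF6 and SRSF4 and 1 each of SRSF11, TRA2A, HNRNPH3 and HNRNPM, beside 2.95%. SRSF6 has only 2 probe sets, so these give the same contrast with opposite sign. That 1 result counts as 2 in the 6, the 4 and the 8 of 130.

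**Figure D1:**
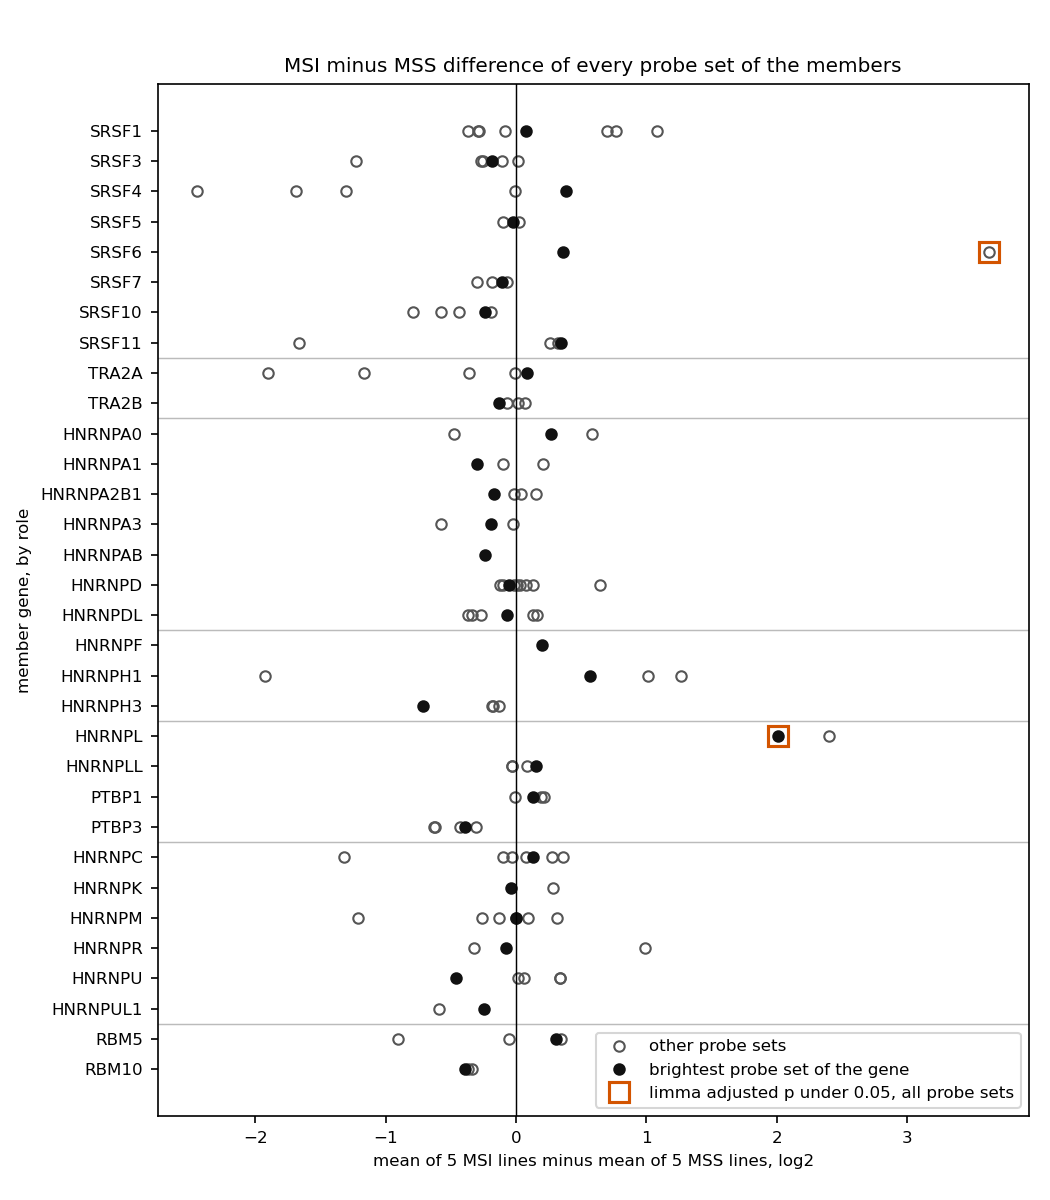
MSI minus MSS difference (log2, horizontal axis) of all 132 probe sets of the 32 measured members (rows, ordered by role), with the brightest probe set of a gene filled and the others open. The filled points lie between -0.71 and 0.57 except for HNRNPL, while single open points reach 3.63 for SRSF6, -2.45 for SRSF4 and -1.93 for HNRNPH1, and the squares mark the 2 probe sets that passed limma's test over all probe sets.

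Among SR proteins, 8 of 10 were measured, and 4 lay above and 4 below 0. SRSF6, once called SRp55, binds purine-rich exonic enhancers. Its probe set 206108_s_at lay at 11.07, 9.98, 10.88, 10.19 and 11.07 in the MSI lines and at 7.57, 5.70, 7.80, 6.71 and 7.26 in the MSS lines. Every MSI line lay near or above 10 and every MSS line below 8, and the groups did not overlap. The means were 10.64 ± 0.52 in MSI and 7.01 ± 0.84 in MSS lines (SD, n = 5 each), a difference of 3.63, or 12.4-fold (SE 0.41, limma adjusted p = 0.0139). The lowest MSS line, HCC2998, lay close to 5.67, the median of all values on the arrays, so the fold is not exact. The brighter SRSF6 probe set, 208804_s_at, lay at 12.38, 11.07, 10.83, 11.96 and 11.11 in the MSI lines and at 11.46, 9.99, 11.88, 11.14 and 11.10 in the MSS lines. Here HCT116 was highest and HCC2998 lowest, and the groups overlapped with a difference of 0.36 (SE 0.40, limma adjusted p = 0.782 over all probe sets). The 206108_s_at signal minus that of 208804_s_at was -1.31, -1.09, 0.04, -1.77 and -0.04 in the MSI lines and -3.89, -4.30, -4.08, -4.42 and -3.84 in the MSS lines. It was higher in all MSI lines than in any MSS line, by 3.27 on average (SE 0.35), and passed both diffSplice (adjusted p = 0.00935) and the line by line limma fit (adjusted p = 0.00559). The exact two-sided permutation p of this difference was 0.00794, the smallest that 5 against 5 lines can give. It is unadjusted, and any probe set whose groups do not overlap gives the same p, so it adds nothing to the lack of overlap. The call for 206108_s_at was lost without SW48 (limma adjusted p = 0.0513) and ranged from 0.00255 to 0.102 over 18 alternatives, of which 15 kept it, while the diffSplice call of SRSF6 held without any 1 line (adjusted p 0.00199 to 0.0261). Both SRSF6 probe sets carry the suffix that Affymetrix gives to sets whose probes can match more than 1 transcript.

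Duplicate cultures of all 4 MSS lines that had them disagreed in the 206108_s_at signal, and not in 1 direction. E1 was higher in CACO2, at 8.71 against 6.43 in E2, and in HT29, at 8.74 against 6.85. E2 was higher in SKCO1, at 7.12 against 6.31 in E1, and in HCC2998, at 6.08 against 5.32. A gap as large occurred in 0.286% of all probe sets in CACO2, 0.806% in HT29, 0.37% in SKCO1 and 3.63% in HCC2998. The 208804_s_at values were closer together in each of these lines, with gaps of 0.02 in SKCO1 to 0.36 in CACO2. The HNRNPL probe set 202072_at differed in the same directions, at 9.14 in E1 and 7.61 in E2 of CACO2, 9.95 and 9.21 in those of HT29, 6.59 and 7.51 in those of SKCO1, and 8.62 and 8.67 in those of HCC2998. A gap as large was found in 1.25%, 10.3%, 0.19% and 82.8% of all probe sets of these lines. The ACTB 3′ minus 5′ signal was 0.43 and 0.47 in E1 and E2 of CACO2, 0.52 and 1.53 in those of HT29, 1.32 and 0.996 in those of SKCO1, and 1.01 and 0.86 in those of HCC2998, and its part in these gaps was not tested. The widest gap between duplicates of an MSI line in 206108_s_at was 0.41, in LS174T, and the highest MSS culture, E1 of HT29, lay below the lowest MSI culture, at 9.86.

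**Figure D2:**
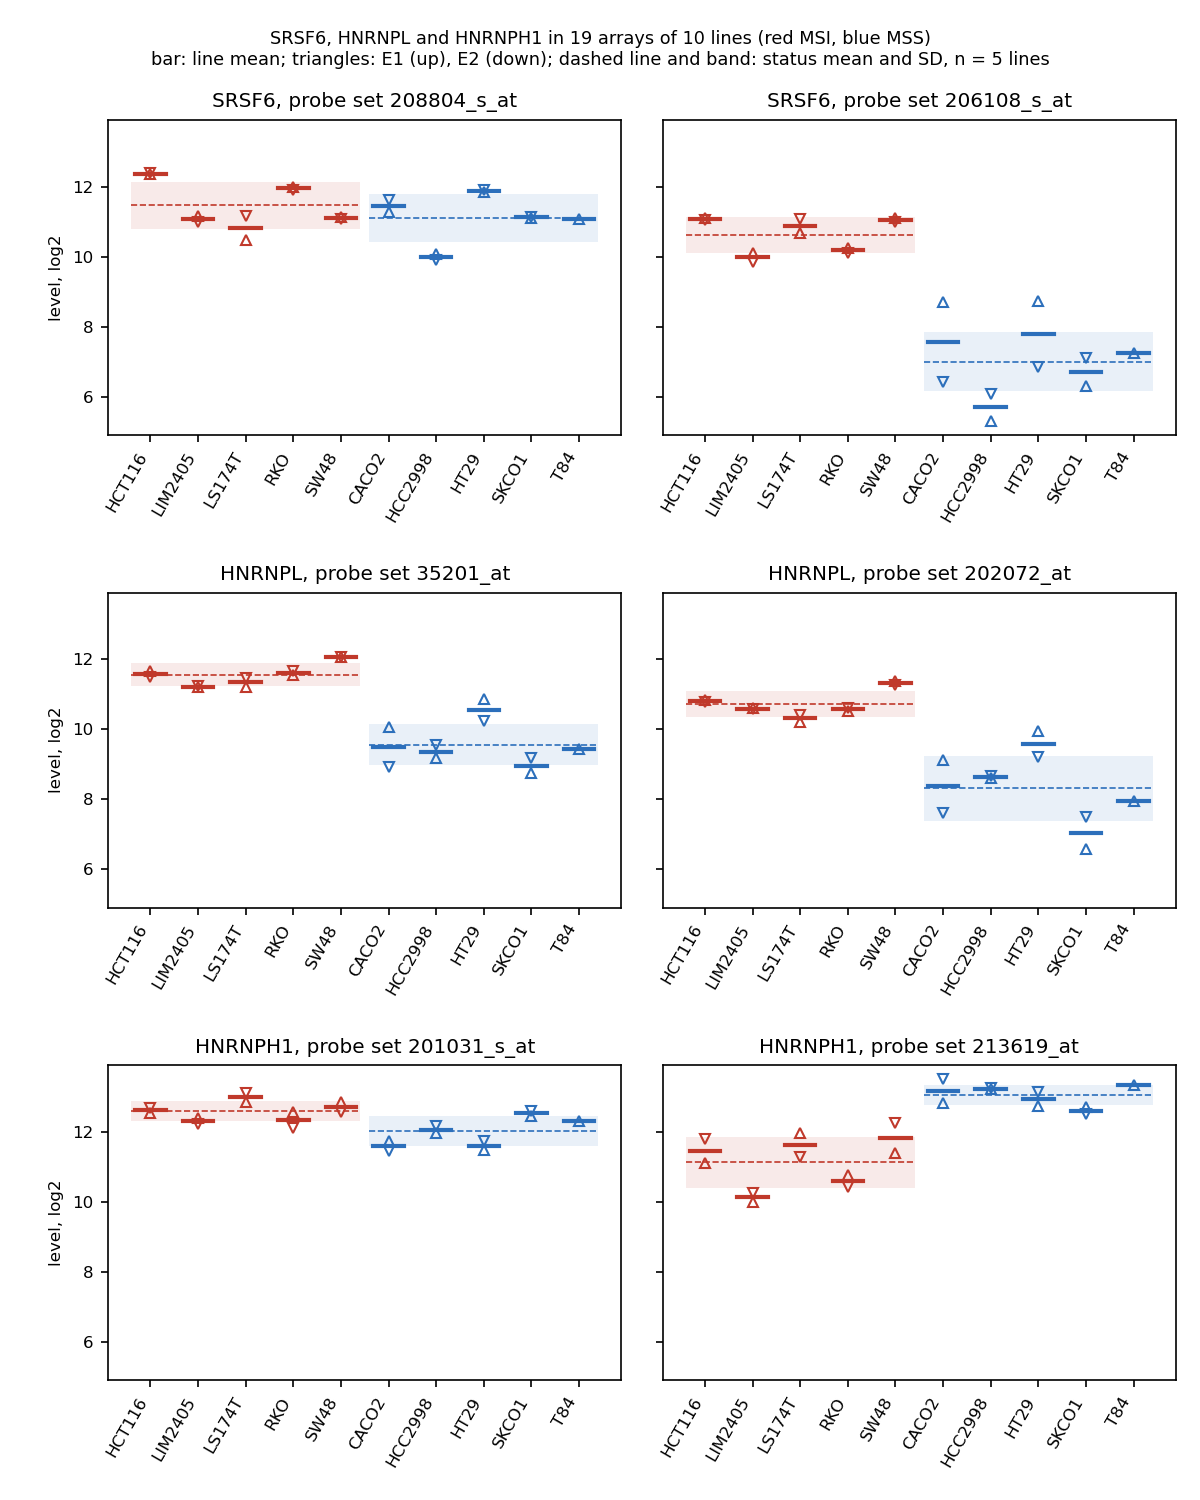
Levels (log2, vertical axis) of 2 probe sets each of SRSF6, HNRNPL and HNRNPH1 in 19 arrays of 10 lines, MSI in red and MSS in blue; bars are line means, triangles single cultures (E1 up, E2 down), and the dashed line and band the mean and SD of 5 lines. SRSF6 206108_s_at and both HNRNPL probe sets lie higher in all MSI lines, HNRNPH1 213619_at lies lower in all of them, and the E1 and E2 triangles of the 4 MSS lines with duplicates stand apart in SRSF6 206108_s_at, most in CACO2 and HT29.

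SRSF4, once called SRp75, was among the members whose probe sets ran in opposite directions. Its brightest, 201696_at, lay at 10.23, 10.96, 10.03, 10.51 and 10.40 in the MSI lines and at 9.39, 10.35, 10.22, 9.91 and 10.35 in the MSS lines, with a difference of 0.38 (SE 0.23, limma adjusted p = 0.627 over genes). The groups overlapped. Its probe set 242837_at lay at 6.57, 6.40, 4.13, 6.02 and 6.94 in the MSI lines and at 6.64, 8.93, 9.33, 7.36 and 10.05 in the MSS lines. It ranged 60.5-fold over the lines, with T84 highest and LS174T lowest. The LS174T value of 4.13 lies below 5.67, the median of all values on the arrays, so this fold is not a measured ratio of RNA. The difference of 242837_at, -2.45 (limma adjusted p = 0.291), did not pass. Neither did 239512_at, at -1.69, or 239511_s_at, at -1.30, which were also lowest in LS174T. Relative to the mean of the other SRSF4 probe sets, 201696_at was 4.93, 5.77, 5.95, 5.85 and 4.87 in the MSI lines and 4.17, 3.50, 3.25, 4.17 and 3.55 in the MSS lines. All MSI lines were above all MSS lines, by 1.74 (SE 0.28), and this passed the line by line fit (limma adjusted p = 0.0285), whereas diffSplice over the gene gave an adjusted p = 0.062. Without CACO2 the latter was 0.00677, and without each of the other 9 lines in turn it was 0.0656 to 0.292 and did not pass.

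SRSF3, the smallest SR protein, lay on its brightest probe set at 12.08, 11.82, 12.05, 11.68 and 12.15 in the MSI lines and at 12.33, 11.73, 12.12, 12.18 and 12.34 in the MSS lines. RKO was lowest and T84 highest, and the status difference was -0.19. Its probe set 232392_at lay at 8.18, 7.02, 8.52, 7.52 and 8.60 in the MSI lines and at 8.70, 8.996, 9.26, 9.05 and 9.97 in the MSS lines. All MSI lines were below all MSS lines, LIM2405 most, by -1.23 (SE 0.35, limma adjusted p = 0.262), which did not pass. Against the other 5 SRSF3 probe sets the difference was -1.07, with a diffSplice adjusted p = 0.0391 and, in the line by line fit, a limma adjusted p = 0.259. The diffSplice call was lost without any 1 of 7 lines, namely HCT116, LIM2405, RKO, HCC2998, HT29, SKCO1 and T84 (adjusted p 0.0737 to 0.298).

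The other SR proteins differed little by status on their brightest probe sets. SRSF1, the founding member, which also acts in mRNA export and translation, lay at 12.20, 11.99, 11.75, 11.97 and 12.67 in the MSI lines and at 12.05, 11.70, 12.14, 12.28 and 12.02 in the MSS lines. SW48 stood highest and HCC2998 lowest. Its 8 probe sets differed by between -0.37 and 1.08, the latter in 226419_s_at, and none passed. SRSF5, a relative of SRSF4 and SRSF6, lay at 11.70, 11.84, 10.85, 11.55 and 12.10 in the MSI lines and at 11.71, 11.38, 11.20, 12.53 and 11.33 in the MSS lines, highest in SKCO1 and lowest in LS174T. The LS174T cultures disagreed, at 10.33 in E1 and 11.38 in E2, and E2 lay above E2 of HT29 at 10.98. SRSF10, which turns into a general repressor of splicing when it is dephosphorylated, lay at 10.64, 10.15, 10.47, 9.98 and 10.53 in the MSI lines and at 10.32, 10.98, 11.27, 10.64 and 9.76 in the MSS lines, and its 2 ends, HT29 and T84, are both MSS lines. All 5 SRSF10 probe sets lay lower in MSI lines, by -0.19 to -0.79 (213594_x_at), and none passed. SRSF11 lay at 12.31, 12.28, 12.74, 12.41 and 12.19 in the MSI lines and at 11.18, 12.60, 11.97, 12.45 and 11.996 in the MSS lines. CACO2 was the low end in SRSF11, and the MSI lines, from 12.19 to 12.74, were closer together than the MSS lines. The SRSF11 probe set 213742_at differed by -1.67 (limma adjusted p = 0.32) although its brightest differed by 0.34. Relative to the other SRSF11 probe sets, 213742_at was lower in every MSI line than in any MSS line, with a limma adjusted p = 0.121 that did not pass. SRSF7, which shuttles to the cytoplasm with mRNA, ranged from 11.46 in LIM2405 to 12.26 in T84 and did not pass the test between lines.

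TRA2A and TRA2B are the human counterparts of Drosophila transformer-2 and bind exonic enhancers rich in GA. TRA2B lay at 12.28, 11.47, 11.83, 11.66 and 12.54 in the MSI lines and at 11.98, 11.83, 12.28, 11.84 and 12.51 in the MSS lines. SW48 and T84, lines of opposite status, shared the high end and LIM2405 the low end. TRA2A ranged from 9.11 in LS174T to 10.04 in LIM2405 on its brightest probe set, with a difference of 0.08. The LS174T cultures disagreed in it, at 8.66 in E1 and 9.56 in E2. The TRA2A probe set 213593_s_at lay at 7.10, 7.50, 6.16, 6.08 and 8.61 in the MSI lines and at 7.99, 9.99, 9.26, 7.40 and 10.32 in the MSS lines. T84 was highest and RKO lowest, and relative to the other TRA2A probe sets every MSI line was below every MSS line, by -1.54 (SE 0.38, limma adjusted p = 0.134, not passing).

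**Figure D3:**
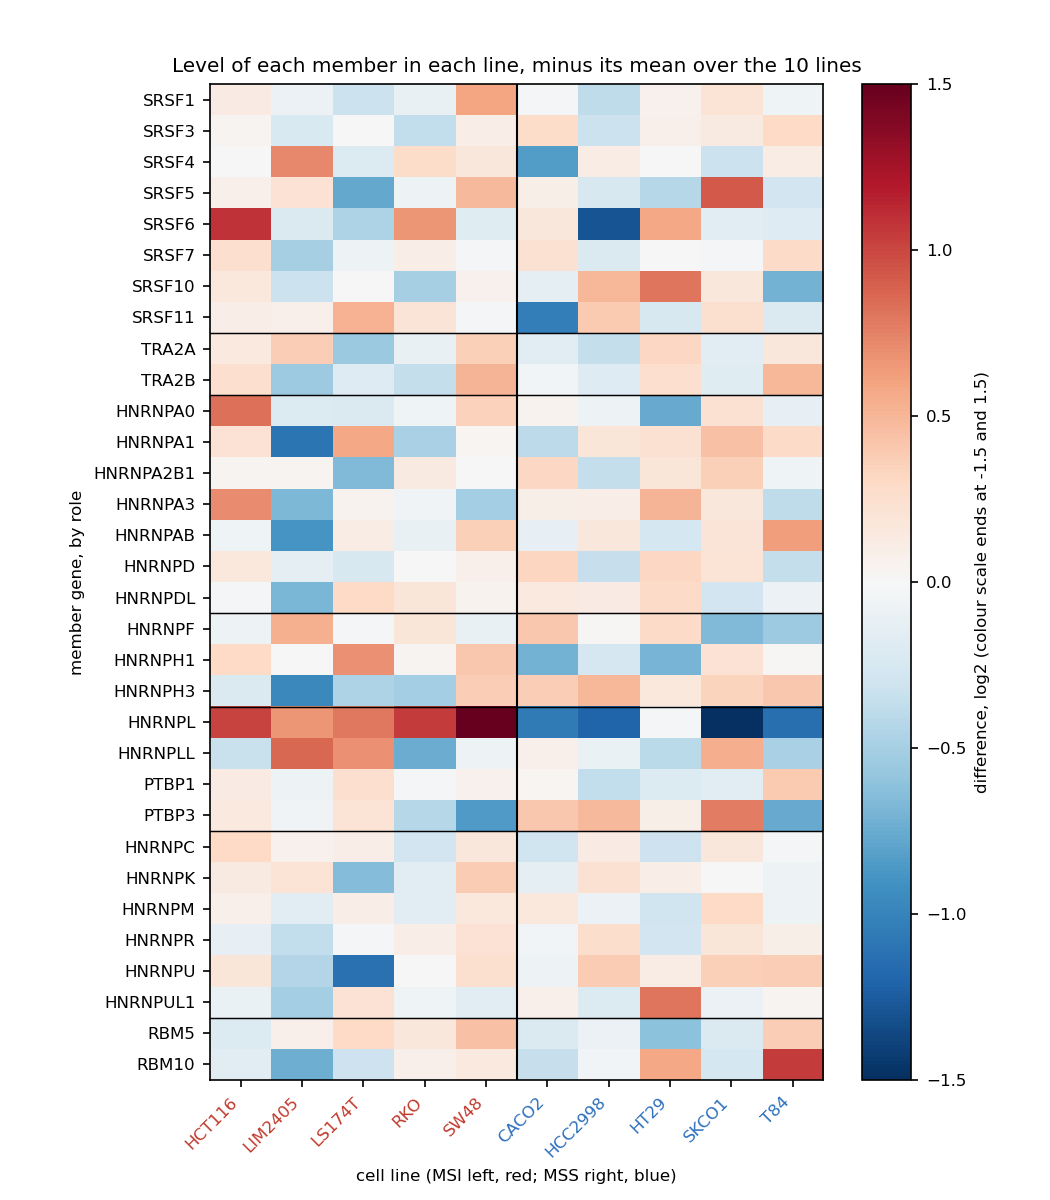
Level of each of the 32 measured members (rows, ordered by role) in each of 10 lines (columns, MSI left of the vertical line), as the log2 difference from the member's mean over the lines, red for higher and blue for lower. HNRNPL is the 1 row in which all MSI lines are above all MSS lines; the column of LIM2405 holds the lowest value of 10 members.

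The hnRNP A/B and D proteins shuttle between nucleus and cytoplasm and include well known exon silencers. Of 7 members, 1 lay above and 6 below 0 in MSI lines, by between -0.30 and 0.27. HNRNPA1, which silences exons through UAGG motifs and opposes SRSF1, lay at 12.04, 10.73, 12.40, 11.33 and 11.86 in the MSI lines and at 11.43, 12.003, 12.05, 12.26 and 12.11 in the MSS lines. LIM2405 stood 0.60 below the next lowest line. HNRNPA2B1, which also sorts RNAs into vesicles and along neurites, lay at 12.11, 12.11, 11.41, 12.20 and 12.07 in the MSI lines and at 12.38, 11.72, 12.25, 12.42 and 12.003 in the MSS lines, with LS174T lowest. HNRNPA0 lay at 12.24, 11.20, 11.19, 11.35 and 11.76 in the MSI lines and at 11.46, 11.34, 10.66, 11.64 and 11.29 in the MSS lines. HCT116 was its highest line and HT29 its lowest. The HT29 cultures were 1.06 apart, at 11.19 in E1 and 10.13 in E2, and E1 was level with the LS174T cultures. HNRNPA3 lay at 11.33, 9.95, 10.67, 10.57 and 10.11 in the MSI lines and at 10.72, 10.73, 11.13, 10.79 and 10.25 in the MSS lines, again with HCT116 highest. HNRNPAB, measured by a single probe set, lay at 12.24, 11.41, 12.41, 12.19 and 12.65 in the MSI lines and at 12.17, 12.47, 12.04, 12.49 and 12.93 in the MSS lines. Here T84 was highest and LIM2405 lowest. HNRNPD, also known as AUF1, which binds AU-rich elements and steers mRNA decay, lay at 12.14, 11.85, 11.75, 11.98 and 12.07 in the MSI lines and at 12.31, 11.64, 12.30, 12.19 and 11.62 in the MSS lines. HNRNPDL, its paralog, lay at 11.53, 10.88, 11.86, 11.74 and 11.61 in the MSI lines and at 11.71, 11.68, 11.85, 11.27 and 11.47 in the MSS lines. Both stayed within 1 on the log2 scale over the 10 lines, and the 9 HNRNPD probe sets differed by status by between -0.12 and 0.64.

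The hnRNP F/H proteins bind runs of G and act as enhancers or silencers by position. HNRNPH1 had its 2 brightest probe sets running in opposite directions. 201031_s_at lay at 12.62, 12.31, 12.99, 12.35 and 12.71 in the MSI lines and at 11.60, 12.06, 11.61, 12.53 and 12.32 in the MSS lines. It lay higher in MSI lines, by 0.57 (SE 0.22, limma adjusted p = 0.429 over genes), and did not pass. 213619_at lay at 11.46, 10.13, 11.63, 10.60 and 11.83 in the MSI lines and at 13.16, 13.24, 12.94, 12.61 and 13.34 in the MSS lines. All MSI lines were below all MSS lines, LIM2405 most, with means of 11.13 ± 0.73 in MSI and 13.06 ± 0.29 in MSS lines (SD, n = 5 each) and a difference of -1.93, or 3.81-fold lower (SE 0.33, limma adjusted p = 0.0753), which did not pass over all probe sets. Against the other HNRNPH1 probe sets, 213619_at was 1.29, 0.57, 3.23, 1.89 and 1.89 in the MSI lines and 4.96, 4.61, 5.12, 3.21 and 5.36 in the MSS lines. The difference of -2.88 (SE 0.53) had a diffSplice adjusted p = 0.00715 and a line by line limma adjusted p = 0.0499, and LS174T and SKCO1 overlapped. The diffSplice call of 213619_at itself held without any 1 line and was lost without suffixed probe sets. The gene-level diffSplice call held without LS174T and without SKCO1 (adjusted p = 0.00175 and 0.0118) and was lost without any 1 of the other 8 lines (0.063 to 0.154). The remaining 2 probe sets, 213470_s_at and 213472_at, differed by 1.27 and 1.01.

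HNRNPH3, a smaller relative, lay at 10.01, 9.26, 9.76, 9.72 and 10.59 in the MSI lines and at 10.60, 10.72, 10.38, 10.56 and 10.63 in the MSS lines. The 5 MSS lines stayed within 10.38 to 10.72, and 4 MSI lines lay below them, while SW48 lay among them. The difference was -0.71 (SE 0.22, limma adjusted p = 0.329 over genes), and the other 3 HNRNPH3 probe sets differed by -0.18, -0.18 and -0.13. HNRNPF, with 1 probe set, lay at 10.36, 10.97, 10.42, 10.62 and 10.33 in the MSI lines and at 10.85, 10.46, 10.73, 9.78 and 9.90 in the MSS lines. LIM2405 and CACO2, of opposite status, were its highest lines and SKCO1 its lowest.

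HNRNPL binds CA repeats and CA-rich elements, as an enhancer or a silencer by position, and is the member with the largest spread over the 10 lines. Its probe set 35201_at lay at 11.58, 11.22, 11.35, 11.61 and 12.06 in the MSI lines and at 9.50, 9.37, 10.55, 8.96 and 9.43 in the MSS lines. The lowest MSI line, LIM2405, was above the highest MSS line, HT29, by 0.68. The means were 11.57 ± 0.32 in MSI and 9.56 ± 0.59 in MSS lines (SD, n = 5 each), a difference of 2.01, or 4.02-fold (SE 0.28), with a limma adjusted p = 0.0364 over all probe sets and 0.0583 over genes. The second HNRNPL probe set, 202072_at, lay at 10.80, 10.59, 10.32, 10.57 and 11.31 in the MSI lines and at 8.38, 8.64, 9.58, 7.05 and 7.96 in the MSS lines. SKCO1 was lowest and SW48 highest in both, and here the difference was 2.40, or 5.27-fold (SE 0.42, limma adjusted p = 0.0785). Unlike in SRSF6, the probe sets of HNRNPL gave the same picture, and the difference between them, 0.39 for 202072_at against 35201_at, did not pass (line by line limma adjusted p = 0.601). The call of 35201_at held in 8 of 18 alternatives (limma adjusted p 0.00174 to 0.118). It was lost without any 1 of HCT116, LIM2405, LS174T, RKO, SW48, HCC2998, SKCO1 and T84 (0.0529 to 0.118), with differences from 1.86 to 2.09.

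The sequences upstream of the annotated starts of SRSF6 and HNRNPL are shown because these genes hold the 2 member probe sets that passed. They are the 250 bases before the start, from RefSeq on GRCh38.p14, 5′ to 3′ on the gene's strand. SRSF6 (chr20:43457646-43457895, + strand) has 1 listed start, and HNRNPL (chr19:38852348-38852597, - strand) has 2, of which the outermost was used. Capitals mark GGGCGG, the core of a GC box, and CCAAT, on either strand.
SRSF6: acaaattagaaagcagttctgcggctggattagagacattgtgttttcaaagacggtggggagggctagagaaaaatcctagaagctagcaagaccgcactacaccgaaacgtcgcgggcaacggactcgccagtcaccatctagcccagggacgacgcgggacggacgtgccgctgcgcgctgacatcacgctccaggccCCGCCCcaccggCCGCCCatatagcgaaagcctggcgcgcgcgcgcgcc
HNRNPL: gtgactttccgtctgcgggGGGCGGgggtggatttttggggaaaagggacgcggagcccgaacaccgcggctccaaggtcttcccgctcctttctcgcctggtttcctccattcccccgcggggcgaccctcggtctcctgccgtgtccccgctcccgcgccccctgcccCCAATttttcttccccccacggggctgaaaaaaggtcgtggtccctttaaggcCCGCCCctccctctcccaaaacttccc
The SRSF6 window holds 28 CpG, 2 GGGCGG and no CCAAT, and that of HNRNPL 21 CpG, 2 GGGCGG and 1 CCAAT. The search covered both strands, and TATAAA was found in neither window. Over the same windows of 35116 listed starts of all genes, 42.6% held GGGCGG, 32% CCAAT and 10.7% TATAAA, with a median of 11 CpG, and over the 44 windows of 30 members these were 63.6%, 45.5% and 13.6%, with a median of 25 CpG. A match of letters is a description of the window and not a binding site.

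HNRNPLL, the paralog of HNRNPL known for skipping exons of CD45 in T cells, did not follow it. It lay at 9.92, 11.11, 10.93, 9.50 and 10.17 in the MSI lines and at 10.32, 10.15, 9.84, 10.79 and 9.76 in the MSS lines, highest in LIM2405 and lowest in RKO, both MSI lines, with a difference of 0.15. PTBP1, which binds polypyrimidine tracts and silences neuronal exons, ranged from 11.38 in HCC2998 to 12.15 in T84 and did not pass the test between lines. PTBP3 lay at 11.58, 11.38, 11.65, 11.004 and 10.59 in the MSI lines and at 11.84, 11.92, 11.53, 12.20 and 10.68 in the MSS lines. Its 5 probe sets all lay below 0 in MSI lines, by between -0.63 and -0.31, and none passed. SKCO1 was highest and SW48 lowest.

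The remaining hnRNPs differed by status by between -0.46 and 0.13 on their brightest probe sets. In the test between lines 5 of 6 passed, beside 67% of all genes. HNRNPC, which binds U tracts as a tetramer and keeps Alu-derived exons out of mRNA, lay at 12.61, 12.38, 12.42, 12.03 and 12.48 in the MSI lines and at 12.02, 12.44, 12.002, 12.49 and 12.31 in the MSS lines. It spanned 0.61 over the 10 lines. Its probe set 235500_at lay at 5.75, 6.85, 5.53, 6.85 and 6.44 in the MSI lines and at 7.23, 8.06, 6.85, 7.65 and 8.23 in the MSS lines. T84 was highest and LS174T lowest, and the difference was -1.32 (SE 0.35, limma adjusted p = 0.232), not passing. Relative to the other 6 HNRNPC probe sets it was lower in MSI lines by -1.44, with a diffSplice adjusted p = 0.0019. The line by line fit gave a limma adjusted p = 0.182 that did not pass, and RKO and HT29 overlapped. The diffSplice call of 235500_at itself held without any 1 line and was lost without suffixed probe sets. At the gene level, the diffSplice call was kept without LIM2405, RKO or HT29 only (adjusted p 0.0218 to 0.289 over the 10 lines left out in turn).

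HNRNPM, which binds GU-rich sequences, had the smallest spread of all members on its brightest probe set, at 11.46, 11.23, 11.49, 11.22 and 11.55 in the MSI lines and at 11.54, 11.30, 11.09, 11.69 and 11.32 in the MSS lines. The means of MSI and MSS lines, 11.39 ± 0.15 in MSI and 11.39 ± 0.23 in MSS lines (SD, n = 5 each), differed by 0.002. Its probe set 214918_at lay at 5.76, 5.22, 4.99, 4.94 and 5.27 in the MSI lines and at 5.95, 6.94, 6.22, 6.21 and 6.91 in the MSS lines. All MSI lines were below all MSS lines, by -1.21 (SE 0.24, limma adjusted p = 0.107), not passing, and HCC2998 differed by 1.29 between its duplicate cultures. The values lie close to 5.67, the median of all values on the arrays. Relative to the other 6 HNRNPM probe sets, 214918_at was -1.21, -1.61, -2.09, -2.03 and -1.81 in the MSI lines and -1.004, -0.03, -0.68, -0.83 and -0.14 in the MSS lines. The diffSplice adjusted p was 1.84e-05, and the gene-level call held without any 1 line (adjusted p 0.000208 to 0.0145), while the line by line fit gave a limma adjusted p = 0.0635 that did not pass.

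**Figure D4:**
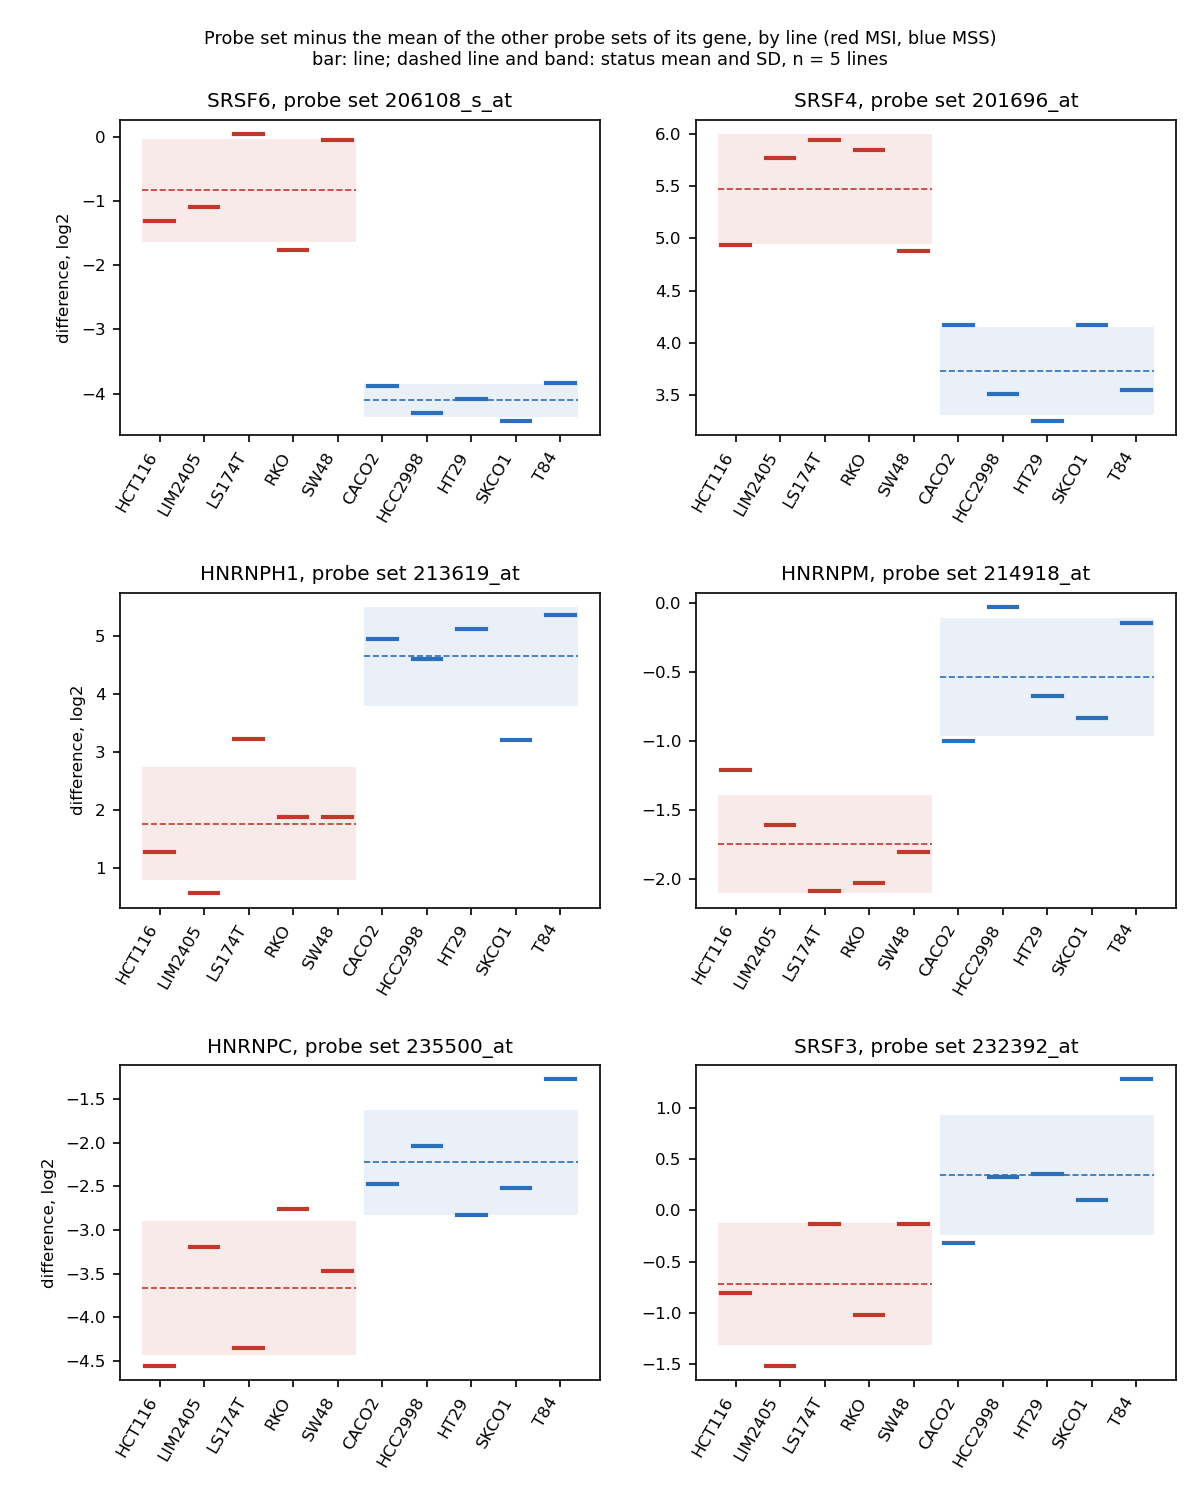
Signal of 1 probe set minus the mean of the other probe sets of its gene (log2 difference, vertical axis) in 10 lines, MSI in red and MSS in blue, for SRSF6, SRSF4, HNRNPH1, HNRNPM, HNRNPC and SRSF3; bars are lines, and the dashed line and band the mean and SD of 5 lines. MSI and MSS lines are apart in SRSF6, SRSF4 and HNRNPM and overlap in HNRNPH1, HNRNPC and SRSF3; vertical scales differ between panels.

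HNRNPK, which binds C-rich RNA through KH domains, lay at 12.81, 12.89, 12.03, 12.52 and 13.06 in the MSI lines and at 12.55, 12.91, 12.78, 12.68 and 12.61 in the MSS lines, lowest in LS174T. There the cultures disagreed, at 11.62 in E1 and 12.44 in E2, and E2 lay above E2 of CACO2 at 12.36. HNRNPR, a relative of SYNCRIP, lay at 11.98, 11.73, 12.09, 12.20 and 12.32 in the MSI lines and at 12.06, 12.37, 11.81, 12.29 and 12.19 in the MSS lines. It spanned 0.63 over the lines. HNRNPU, also a scaffold protein of chromatin, lay at 12.47, 11.86, 11.18, 12.29 and 12.54 in the MSI lines and at 12.23, 12.68, 12.41, 12.65 and 12.67 in the MSS lines. It ranged 2.83-fold over the lines, LS174T stood 0.68 below the next lowest line, and without regard to it the status groups still overlapped. The LS174T cultures were 0.83 apart in HNRNPU, at 10.76 in E1 and 11.59 in E2, both below every culture of the other lines. The ACTB 3′ minus 5′ signal of LS174T was 2.81 in E1 and 1.81 in E2, and its part was not tested. HNRNPUL1, its relative, lay at 10.37, 9.95, 10.68, 10.41 and 10.30 in the MSI lines and at 10.54, 10.26, 11.28, 10.38 and 10.51 in the MSS lines, ranging 2.50-fold with HT29 highest.

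RBM5 and RBM10 are paralogs that act in exon choice within the early spliceosome. RBM5 lay at 10.66, 10.93, 11.15, 11.02 and 11.30 in the MSI lines and at 10.64, 10.77, 10.25, 10.64 and 11.23 in the MSS lines. SW48 was highest and HT29 lowest. Its probe set 230742_at differed by -0.91 and its other 3 by between -0.05 and 0.34. RBM10, on the X chromosome, lay at 9.31, 8.74, 9.17, 9.55 and 9.62 in the MSI lines and at 9.13, 9.44, 10.06, 9.22 and 10.52 in the MSS lines. T84 was highest and LIM2405 lowest, and its 3 probe sets gave differences from -0.39 to -0.34, the narrowest span of any member with several probe sets.

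Most members differed between lines more than between duplicate cultures. 28 of 32 passed limma's moderated F test over the 10 lines at an adjusted p of 0.05, beside 67% of all genes, and SRSF7, TRA2A, PTBP1 and HNRNPM did not (adjusted p = 0.051, 0.057, 0.0564 and 0.215). The 67% covers genes of every signal level, dim ones included, and the share over genes as bright as the members is not given. The SD between lines was 1.15 in HNRNPL, 0.67 in SRSF6 and 0.54 in HNRNPLL at the upper end and 0.22 in HNRNPC, 0.21 in HNRNPR and 0.18 in HNRNPM at the lower end. Its median over members was 0.39, beside 0.42 over all genes and 0.52 over the 3715 genes with a mean level at or above that of the dimmest member. By array signal, members lay above most genes, with a median of 11.59 against 6.90, which is not a comparison of RNA amounts. The median SD between duplicates was 0.21, beside 0.19 over all genes. The range over the lines was 8.59-fold in HNRNPL and 1.51-fold in HNRNPM.

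No line was high or low in the members throughout. The mean deviation of the 32 members from their own means lay between -0.16 in LIM2405 and 0.16 in SW48. LIM2405 held the lowest value of 10 members, among them HNRNPA1, HNRNPAB, HNRNPH3 and RBM10, and also the highest value of 4, among them SRSF4 and HNRNPLL. SW48 and T84 were highest in 5 members each. Across the 10 lines, Pearson's r between 2 members had a median of 0.06 over 496 pairs and went from -0.80 (HNRNPAB with HNRNPF) to 0.79 (HNRNPAB with HNRNPR), and 7 pairs were over 0.7. These are descriptions over 10 lines, and the points share arrays and normalization. Between the 2 brightest probe sets of 1 gene, r had a median of 0.57 over 30 members, from -0.52 in HNRNPA2B1 to 0.98 in RBM10.

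The genes that work with these proteins did not pass by status as genes. Over all genes, 0.0455% passed limma's test by status and 9.77% had an unadjusted p under 0.05. diffSplice called 1.32% of the genes it tested, and 0.189% of all probe sets passed limma's test. The counts below are to be read beside these shares. Of the SR protein kinases and phosphatase, 8 of 9 listed genes were measured, none passed limma's test over all genes, and at an unadjusted p under 0.05 there were 0. The smallest p-values were those of SRPK2 (0.62, SE 0.31), CLK4 (0.61, SE 0.37) and CLK3 (0.25, SE 0.21), MSI minus MSS. Of 31 core spliceosome genes, none passed (3 at an unadjusted p under 0.05), and the smallest p-values were those of PRPF4, of the tri-snRNP (0.63, SE 0.19), SNRPC, of the U1 snRNP (0.28, SE 0.11), and CDC5L (0.41, SE 0.17). Of 33 other splicing regulators, 31 were measured and none passed as genes (1 higher and 4 lower at an unadjusted p under 0.05), with RBM39 (-0.47, SE 0.16), TIAL1 (0.21, SE 0.08) and RBM47 (-2.41, SE 0.94) at the smallest p-values. RBM6, a paralog of RBM5 and RBM10, was the only one of 29 tested whose probe sets differed from each other in diffSplice, and 1 of the 125 probe sets of this list passed. Of 14 genes of nonsense-mediated decay, 8 were measured and none passed (1 at an unadjusted p under 0.05), with SMG8 (0.53, SE 0.23), SMG5 (-0.47, SE 0.23) and EIF4A3 (0.34, SE 0.23) at the smallest p-values. The adjusted p of these 12 genes lay between 0.338 and 0.713.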

How the data were processed

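The deposited table holds log2 values of 54675 probe sets on 19 arrays. Per the submitters' processing notes they were made by RMA, a method of background correction, normalization across arrays and probe summary. No version of it and no scan date is given in the sources used. Per the labels' protocols, RNA came from RNeasy columns and was biotin-labelled in one cycle of amplification. Of the probe sets, 62 controls were left out, and genes were named from GEO's platform annotation where a probe set has 1 gene symbol (41091 probe sets). All 132 member probe sets matched RefSeq by Entrez number.

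Arrays of a line were averaged, and the line was the replicate, as in the study's design. limma 3.58.1 in R 4.3.3 (lmFit, eBayes, diffSplice) was fitted over all genes or probe sets with Benjamini-Hochberg adjustment, two-sided, at 0.05. The scripts were tested on simulated data. The number of arrays limits the precision. Per the design text each line was grown in duplicate, so the test between lines uses the spread between cultures of 1 line. E1 and E2 numbers were checked for pairing. The deviations of E2 from E1 had correlations of -0.21 to 0.27 between lines, over 0.1 in 7 of 36 pairs, so the number was not used to pair samples. Given with a value for each line are members past a threshold in any test or with separated groups, and the 3 largest and 3 smallest SDs between lines; of related lists, those past the threshold or the 3 smallest p-values. The members and lists were chosen with earlier results of these data known. The authors' table of t-tests was not used. Alternatives were other choices of probe set, dim probe sets left out, other scaling, robust fits, a plain t-test, all arrays with blocks, E1 alone, and each line left out.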

Additional observations from a re-analysis of the deposited data

Results flagged for a closer look

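In 2 members, a line stood far from the others of its status by Dixon's test, which was run on 76 groups of 5 lines and finds about 1 in 20 by chance. HNRNPA2B1 (205292_s_at) was at 11.41 in LS174T, below the other MSI lines at 12.07 to 12.20. This is 1 of 4 HNRNPA2B1 probe sets, and its r with the next brightest, 225932_s_at, was -0.52 over the lines. LS174T also had the highest ACTB 3′ minus 5′ signal of the 10 lines, at 2.31. HNRNPUL1 (208713_at) was at 11.28 in HT29, above the other MSS lines at 10.26 to 10.54. The cause of either was not tested.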

How the results depend on the processing

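The count of member genes that passed between MSI and MSS, 0, became 1 with the probe set of largest interquartile range (SRSF6), with the brightest probe set without the s or x suffix, with dim probe sets left out, with arrays centred on the median, and with all 19 arrays and line as a random block (HNRNPL in each). It stayed 0 with a plain t-test. Leaving out a line gave 0 to 1 (1 without HT29). The 2 member probe sets became 4 with dim ones left out, 7 with line as a random block, and 0 with a plain t-test or with E1 arrays alone, and 0 to 3 with a line left out (0 without SW48). With the culture number as a replicate block beside line, 1 gene and 6 probe sets passed, and the number did not pair the samples. The 4 members whose probe sets differed became 1 without suffixed probe sets, where SRSF6 has none, and 2 to 3 with a line left out. The 28 members that differed between lines and the median difference kept their calls under every alternative run for them. HNRNPH1 had the other sign, -1.93, on its brightest probe set without a suffix (limma adjusted p = 0.102, 0.102 to 0.8 over its 21 alternatives). Of 338 recomputed values, 294 kept sign and side of the threshold, 27 lost the threshold, 16 gained it and 1 reversed. Between-status differences of 12 members kept their sign in all 21 alternatives, and those of 20 did not. With 5 lines a status, signal near background limits what the dim probe sets show, 214918_at of HNRNPM among them.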
